A study of Mus musculus with 2 samples.

Results

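Among immune cells sorted from mouse brain tumours, 189 cells carried transcripts of natural killer (NK) cell receptors together with transcripts of Cxcr6 or Itga1, genes that mark lymphocytes lodged in tissue. They are called tissue-type NK cells here, and were chosen by UMIs of these genes. A cell was taken as an NK cell when it held at least 2 UMIs (unique molecular identifiers, each standing for 1 captured transcript) of Ncr1 and Klrb1c together, at most 1 of Cd3d, Cd3e and Cd3g, at most 1 of Cd79a and at most 3 of C1qa, C1qb and C1qc. It was tissue-type when Cxcr6 and Itga1 together gave at least 1 UMI. The 189 cells were 96 from the control library and 93 from the metformin library, of 797 gated NK cells and 10041 cells that passed the cell filter. The other 608 NK cells, 249 and 359 in the same order, had no UMI of either gene and served as the comparison.

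The study compared control drinking water with water containing metformin, in C57BL/6 mice injected in the brain with GL261 cells, a mouse glioma line. Tumour tissue was taken on day 20, and cells with high CD45, the common leukocyte antigen, were sorted from it and profiled with the 10x Genomics 3' kit. Each treatment is 1 library. The number of mice behind a library, the metformin dose and the sex of the mice are not given in the sources used here, and both groups share strain, tumour line, day and sort. With 1 library per group there is no replicate error, so no test was run: every interval below is a 95% interval for counting error only.

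NK cells are innate lymphocytes that kill stressed or transformed cells and release interferon-γ. Circulating NK cells depend on the T-box factor Eomes, carry Ly49 receptors for MHC class I and store granzyme A. Group 1 innate lymphoid cells (ILC1) are their tissue relatives: in mice they are known for the integrin CD49a, encoded by Itga1, the chemokine receptor CXCR6, the IL-7 receptor, TRAIL and low Eomes, and under TGF-β, as in many tumours, NK cells can take on part of that programme. CXCR6 binds CXCL16 and CD49a binds collagen, and both hold lymphocytes in tissue.

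Cxcr6 (ENSMUSG00000048521) spans chr9:123806475-123811760 and Itga1 (ENSMUSG00000042284) spans chr13:114953096-115101964 on build mm10 (GRCm38), in the GENCODE M21 annotation. Gzmc (ENSMUSG00000079186), which encodes granzyme C, spans chr14:56231441-56234656. The 250 bases ahead of the start of each, from RefSeq on GRCm38.p6 and written 5′ to 3′ on the strand of the gene, show the sequence next to the genes the results turn on. Capitals mark the RUNX core TGTGGT or its reverse complement ACCACA, the motif of the Runx factors that work in NK and resident lymphocytes.
Cxcr6, chr9:123806227-123806476, plus strand: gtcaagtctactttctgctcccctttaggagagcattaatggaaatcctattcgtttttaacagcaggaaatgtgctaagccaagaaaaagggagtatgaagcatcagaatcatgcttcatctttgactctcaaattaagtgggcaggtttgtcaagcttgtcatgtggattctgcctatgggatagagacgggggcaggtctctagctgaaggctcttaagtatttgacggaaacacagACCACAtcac
Itga1, chr13:115101965-115102214, minus strand: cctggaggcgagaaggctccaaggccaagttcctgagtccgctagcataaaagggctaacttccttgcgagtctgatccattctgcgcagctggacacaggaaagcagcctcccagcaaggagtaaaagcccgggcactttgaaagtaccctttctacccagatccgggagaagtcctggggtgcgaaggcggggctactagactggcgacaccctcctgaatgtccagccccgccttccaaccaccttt
Gzmc, chr14:56234658-56234907, minus strand: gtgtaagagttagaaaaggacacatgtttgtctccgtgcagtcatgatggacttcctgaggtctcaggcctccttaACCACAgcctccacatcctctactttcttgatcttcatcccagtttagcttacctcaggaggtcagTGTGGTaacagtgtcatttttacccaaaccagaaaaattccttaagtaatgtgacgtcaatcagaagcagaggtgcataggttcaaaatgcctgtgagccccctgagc
Gzma, chr13:113100982-113101231, minus strand: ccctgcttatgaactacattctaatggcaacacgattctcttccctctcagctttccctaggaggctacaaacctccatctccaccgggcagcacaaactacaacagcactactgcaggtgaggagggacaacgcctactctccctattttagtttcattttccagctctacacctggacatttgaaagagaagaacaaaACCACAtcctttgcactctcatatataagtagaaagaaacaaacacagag

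The RUNX core occurred at bases -10 to -5 of Cxcr6, at -174 to -169 and -108 to -103 of Gzmc and at -50 to -45 of Gzma, counted back from the RefSeq start, and not in these 250 bases of Itga1. It stands in 14.0% of 32851 promoters of the same length. Gzmc also held the cAMP response element TGACGTCA at -57 to -50, found in 1.55% of promoters. The T-box motif AGGTGTGA and the AP-1 motif TGANTCA, found in 1.12% and 6.75% of promoters on either strand, matched none of the 4. The motifs were chosen with these matches in view and are a description of the sequence.

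The 189 cells were not one uniform kind. Of the 96 control cells, 17 held UMIs of both genes, 21 of Cxcr6 alone and 58 of Itga1 alone, and the 93 metformin cells split into 15, 18 and 60. Cells placed by a single UMI numbered 41 and 44. Cells with 2 UMIs numbered 13 and 11, and cells with 3 or more, 42 and 38. The highest sum in a cell was 15 UMIs in control and 16 in metformin. Ncr1, which encodes the activating receptor NKp46, was at 420 CPM in control and 541 CPM in metformin tissue-type cells, where CPM is the summed UMIs of the gene per 1000000 UMIs of the group. Ncr1 is a gate gene, so this level describes the choice of cells.

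Of the 5 markers given for the type, the gate used Ncr1, Cxcr6 and Itga1, and the other 2 were free of it. The markers were given with earlier results of these data known, so the 2 describe the cells and do not test the label. Gzmc had a UMI in 25% of control and 20.4% of metformin tissue-type cells, against 5.62% and 5.01% of other NK cells. Tmem176b, which encodes an ion channel subunit of intracellular membranes, had one in 30.2% and 26.9%, against 5.62% and 4.74%. So the markers that were free of the gate were present in a minority of the 189 cells, and the ILC1 part of the name is used for that minority only. Of the cells with Gzmc, 10 of 24 in control and 8 of 19 in metformin also had an Eomes UMI. The ILC1 markers Il7r and Tnfsf10 had a UMI in 32.3% and 21.5% and in 51.0% and 35.5% of tissue-type cells. Other markers gave few UMIs. Cd200r1 gave 11 and 9 UMIs in tissue-type cells and 1 and 3 in other NK cells, and Zfp683, encoding the residency factor Hobit, gave 3 and 8 against 0 in both groups of other NK cells. Itgae, the integrin chain CD103, gave 14 and 3 UMIs in tissue-type and 1 and 22 in other NK cells, so its order differed between the libraries.

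Cells of the other innate lineages were looked for with marker lists. The 9 ILC3 genes together held 14.0 and 21.2 CPM in tissue-type cells, from 12 and 16 UMIs, and 5.51 and 9.82 CPM in other NK cells, with 4 and 3 of the 9 found in tissue-type cells. The 11 ILC2 genes together held 132 and 163 CPM against 146 and 135 CPM, with 6 and 5 of the 11 found in tissue-type cells. Among them Il22, a cytokine of ILC3, and Il1rl1, the IL-33 receptor of ILC2, had 0 UMIs in the tissue-type cells of both libraries, a count that allows up to 3.51 CPM in control and 3.97 CPM in metformin. The 6 basophil markers also had 0 UMIs in both. The 7 neutrophil genes held 56.2 and 19.8 CPM, against 25.1 and 13.1 CPM in other NK cells. Of their 48 UMIs in control tissue-type cells, 38 lay in cells with Cxcr6 alone. The 8 monocyte genes held 1189 and 1191 CPM against 908 and 1097 CPM, with Ly6c2 and Plac8 higher in both libraries. The 9 B cell genes, the gate gene Cd79a among them, held 309 and 365 CPM against 196 and 474 CPM, with Ighm higher in both. Summed over 14 T cell genes, tissue-type cells held 897 and 973 CPM and other NK cells 882 and 931 CPM. This list holds the 3 Cd3 genes that the gate limits to 1 UMI, so the sum is partly set by the rule. Cells with both gate genes held 1097 and 1149 CPM, and Trbc2, a T cell receptor β constant gene, was higher there than in other NK cells, with ratios of 1.61 (1.21 to 2.10) and 2.91 (2.26 to 3.72). Tcrg-C4, a T cell receptor γ constant gene, was higher in tissue-type cells, at 85.4 against 7.96 CPM in control and 58.2 against 6.14 CPM in metformin. Trdc, the T cell receptor δ constant gene, went the other way in control, where it was lower in tissue-type cells by the rule given below. In metformin it was not counted as lower. In cells with both gate genes Trdc was lower in both libraries. The 9 γδ T cell genes together held 163 and 136 CPM in tissue-type and 91.2 and 98.2 CPM in other NK cells, with Sox13 and Il17a at 0 UMIs in the tissue-type cells. The part of T cells in these UMIs was not tested. In B cells, which should lack Cxcr6 and Itga1, 2.08% of control and 1.92% of metformin cells had a UMI of either gene, at a median of 5602 and 5136 UMIs per cell. The shares among gated NK cells below lie far above that background, with medians of 7183.5 and 7175 UMIs in tissue-type and 6333 and 6367 in other NK cells.

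Tissue-type cells made up a smaller share of NK cells in the metformin library, while the interval of their ratio as a share of all cells included 1. They were 27.8% of gated NK cells in control (23.2% to 32.9%) and 20.6% in metformin (16.9% to 24.6%), a ratio of 0.739 (0.550 to 0.994). As a share of all filtered cells they were 1.77% (1.43% to 2.15%) and 2.02% (1.63% to 2.47%), a ratio of 1.14 (0.850 to 1.54). The other NK cells were 4.58% and 7.79% of all cells, a ratio of 1.70 (1.44 to 2.01). The smaller share among NK cells thus stood beside a larger share of NK cells without Cxcr6 or Itga1 UMIs among all cells.

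The share also followed depth, since a deeper cell has more chances to show a UMI. With the gated NK cells of a library ranked by total UMIs and cut into 4 equal parts, it was 17.4%, 26.7%, 25.6% and 41.4% in control, from the shallowest to the deepest, and 13.3%, 20.4%, 20.4% and 28.3% in metformin. With each cell thinned to 3943 UMIs, which left out 35 control and 37 metformin cells, the shares were 21.3% and 16.6%, and the ratio was 0.781 (0.549 to 1.11), an interval that includes 1. The composition within the tissue-type cells differed less: cells with both genes were 17.7% and 16.1% of them, a ratio of 0.911 (0.424 to 1.94), and cells with Itga1 alone were 60.4% and 64.5%, a ratio of 1.07 (0.732 to 1.56). Dividing cells, with a UMI of Mki67 or Top2a, numbered 9 and 11 of the tissue-type cells and 40 and 46 of the others.

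**Figure D1:**
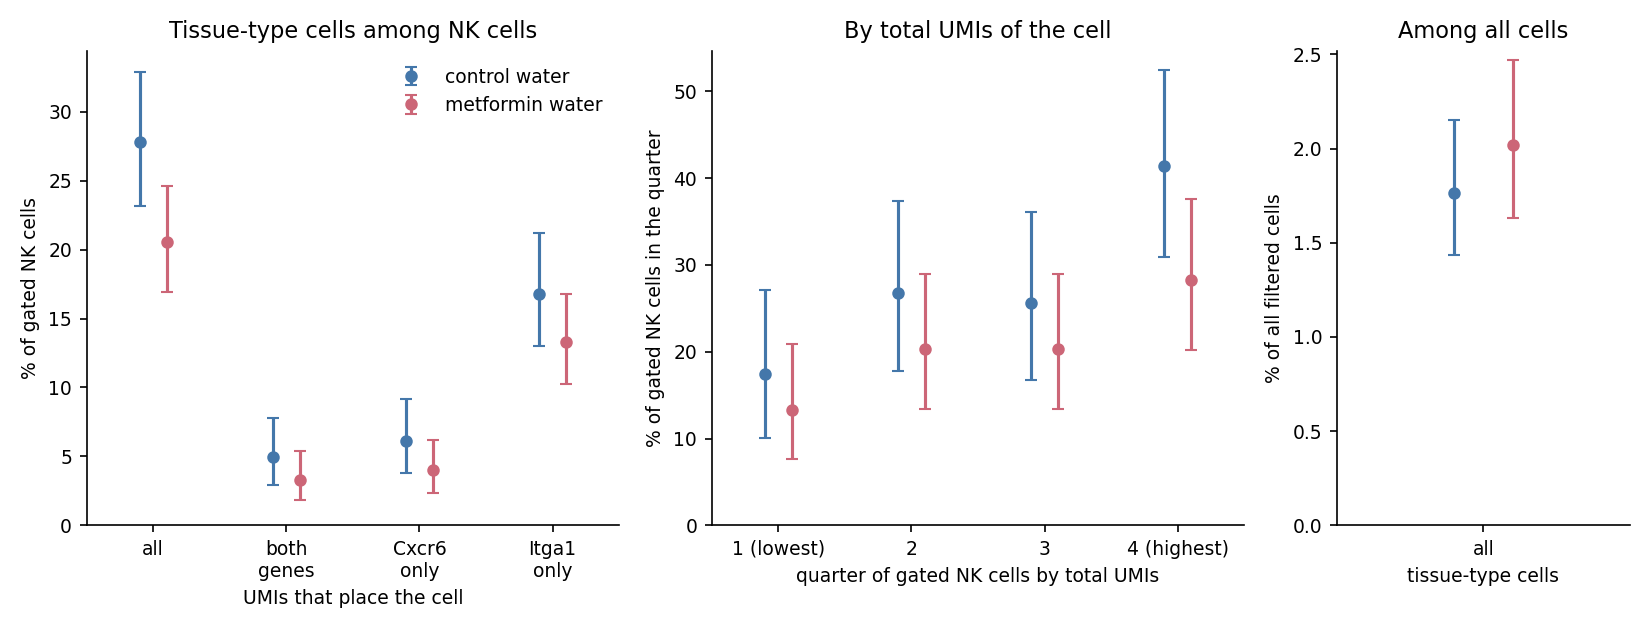
Shares of tissue-type cells (points, with 95% Clopper-Pearson intervals) in the control and metformin libraries. Left, percent of gated NK cells, in all and by the gene that placed the cell; middle, percent of the gated NK cells in each of the 4 parts ranked by total UMIs; right, percent of all filtered cells. The control points lie above the metformin points in the left and middle panels and below in the right panel, and the share is highest in the deepest part in both libraries.

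Tissue-type cells were richer than other NK cells in granzyme C, the Tmem176 pair, S100a4 and the IL-7 receptor, and poorer in granzyme A, perforin, Ccl5, Ly49 receptors and Eomes, in both libraries. A gene was counted as higher or lower when it had at least 50 CPM and 20 UMIs in 1 of the 2 groups, was at least 1.5-fold up or down and had an interval that left out 1. Both libraries had to pass separately. Of 2746 genes past the minimum in both, 60 were higher (2.18%) and 54 lower (1.97%), the gate genes Cxcr6 and Itga1 among the 60. These genes were 38.2% of the 157 higher (5.27% of 2981 genes) and 33.3% of the 162 lower (5.43%) in the control library. They were 45.8% of the 131 higher (4.48% of 2927) and 41.9% of the 129 lower (4.41%) in the metformin library. Because the groups were cut by UMIs in the same cells, the comparison describes the cells and is no test. Since the UMIs are summed, more cells with a transcript and more transcripts per cell are told apart only where shares of cells are given.

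Among the residence and ILC1 genes, 10 of the 16 listed genes past the minimum were higher in both libraries and 0 lower, against 2.18% and 1.97% of all genes. The median log2 ratio of the list was 1.33 in control and 1.45 in metformin, where all genes had medians of -0.00 and 0.00. Gzmc stood at 2654 CPM in control and 1539 CPM in metformin tissue-type cells, against 84.5 and 106 CPM in other NK cells. Its ratios were 31.4 (26.4 to 37.6) and 14.5 (12.6 to 16.6). Granzyme C is a serine protease of cytotoxic granules that is best known from strongly stimulated killer cells. A few cells carried most of these transcripts: 24 control and 19 metformin tissue-type cells had any, and the richest of them held 19.0% and 50.2% of the Gzmc UMIs. The reads of granzyme genes of the same family are so alike that the authors' counting may have split some between them.

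Tmem176a and Tmem176b form a pair of related genes on chromosome 6 whose 5′ ends overlap on opposite strands, chr6:48840919-48847071 and chr6:48833818-48841496. Whether the counting used strand is not given in the sources used here, so their UMIs may be shared. Tmem176a was at 110 and 168 CPM in tissue-type cells against 7.35 and 9.41 CPM in other NK cells, ratios of 15.0 (8.18 to 30.0) and 17.8 (11.4 to 29.1). Tmem176b was at 161 and 190 CPM against 15.3 and 15.1 CPM, ratios of 10.6 and 12.6. Both genes had intervals that left out 1 in both libraries. Il7r, the α chain of the IL-7 receptor on which many tissue lymphocytes live, was at 128 and 126 CPM against 23.9 and 12.7 CPM, ratios of 5.34 (3.68 to 7.91) and 9.90 (6.54 to 15.4).

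Further residence genes had smaller ratios. Tnfsf10, which encodes the death ligand TRAIL, was at 118 and 82.0 CPM against 28.8 and 21.3 CPM, ratios of 4.11 and 3.85, and had a UMI in 51.0% and 35.5% of tissue-type cells. Inpp4b, a lipid phosphatase, had ratios of 5.29 and 7.88, and Ckb, brain-type creatine kinase, 5.03 and 6.28. Rora, a nuclear receptor of innate lymphoid cells, had ratios of 2.55 (1.73 to 3.79) and 4.69 (3.24 to 6.83). Among secreted products, Xcl1, the chemokine that draws cross-presenting dendritic cells, had ratios of 2.50 and 1.62, and Ltb, lymphotoxin β, 2.33 and 1.96. Cd69, an early activation and retention receptor, differed between the libraries, with ratios of 1.03 (0.851 to 1.25) in control and 1.52 (1.28 to 1.80) in metformin.

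Of the genes outside that list, S100a4, a calcium-binding protein of motile cells, was at 518 and 436 CPM against 42.2 and 43.8 CPM, ratios of 12.3 (9.51 to 16.1) and 9.96 (7.99 to 12.5). Ly6a, which encodes Sca-1, had ratios of 10.7 (7.86 to 14.8) and 2.91 (2.34 to 3.61). The gap between its ratios came with a level in other NK cells of 30.0 CPM in control and 74.5 CPM in metformin. Spp1, osteopontin, had ratios of 4.41 and 7.71, but only 8 control and 9 metformin tissue-type cells had a UMI and the richest held 36.1% and 34.9% of them. Of 18 genes past the minimum on the activating receptor and adaptor list, 3 were higher in both libraries and 0 lower. Over all genes 2.18% were higher and 1.97% lower. The 3 were Cd226 (DNAM-1, ratios 3.82 and 4.08), Cd160 (1.89 and 1.67) and Klrb1b (2.01 and 1.77). Klrb1b stood on this list but encodes an inhibitory receptor, so it is not read as an activating one.

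**Figure D2:**
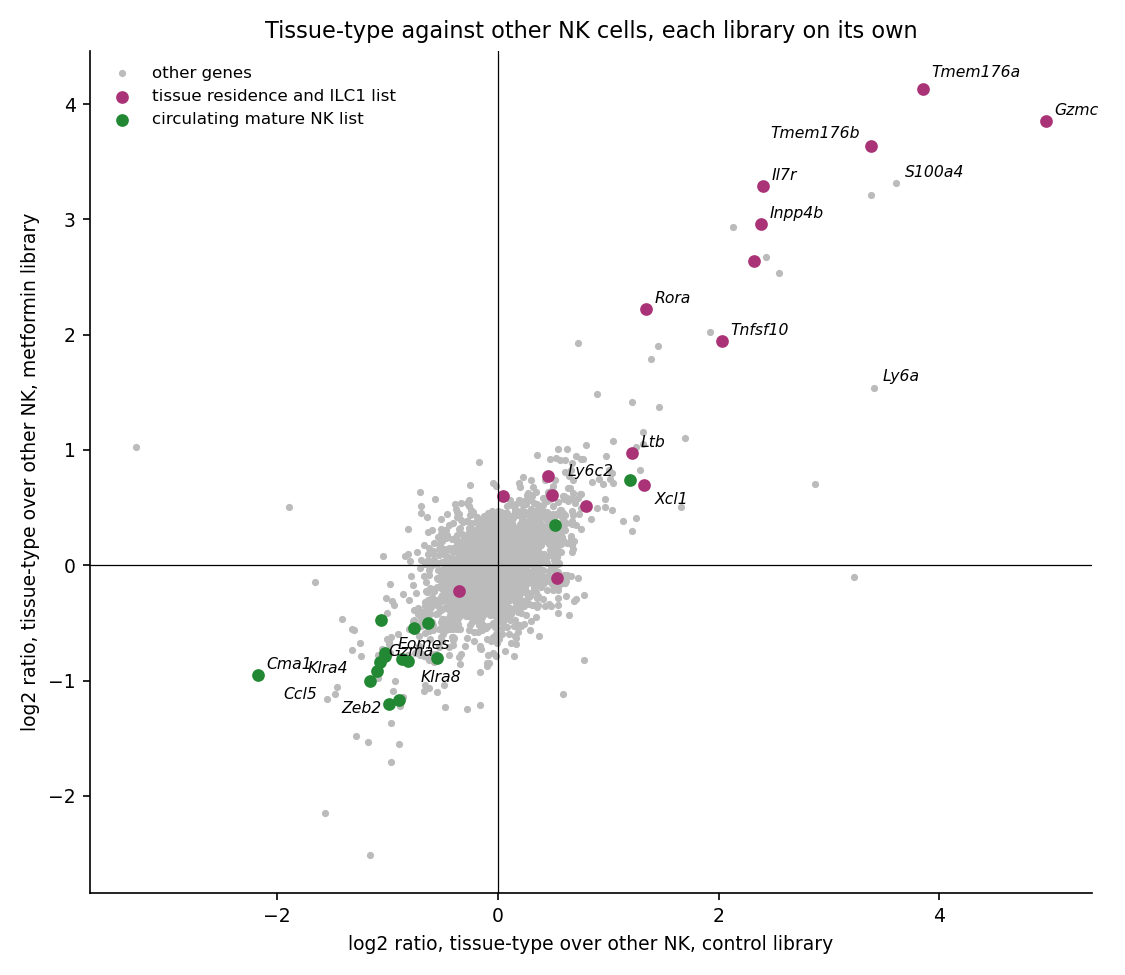
Each point is 1 of 2744 genes past the minimum in both libraries, without Cxcr6 and Itga1; the axes give the log2 ratio of tissue-type over other NK cells in the control (x) and metformin (y) library, on summed UMIs as CPM. Genes of the residence and ILC1 list (purple) reach the upper right, with Gzmc and Tmem176a the farthest of those listed, and most genes of the circulating NK list (green) lie in the lower left.

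Genes of circulating NK cells were lower. Of 16 listed genes past the minimum, 10 were lower in both libraries and 1, Ly6c2, was higher, against 1.97% and 2.18% of all genes. The list's median log2 ratio was -0.94 in control and -0.81 in metformin. Eomes was at 157 and 161 CPM in tissue-type cells against 320 and 275 CPM in other NK cells, ratios of 0.491 (0.403 to 0.594) and 0.587 (0.480 to 0.713). Zeb2, a repressor that works in late NK maturation, had ratios of 0.536 and 0.440, and Irf8 had 0.467 and 0.530. Itga4, an integrin chain that binds vessel walls, had ratios of 0.469 and 0.506, and Itga2, the chain of the circulating NK marker CD49b, 0.487 and 0.575. Tbx21, the T-box factor T-bet that NK cells and ILC1 share, was within 1.5-fold in both libraries, with ratios of 1.18 (0.892 to 1.55) and 0.885 (0.648 to 1.19).

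Ly49 receptors followed the same order. Of 6 Ly49 genes past the minimum, 3 were lower in both libraries, where 1.97% of all genes were. Klra4 was at 0.449 and 0.498, Klra8 at 0.569 and 0.562 and Klra9 at 0.547 and 0.567 of the level in other NK cells. Genes of this family are near copies of each other, so the counts of single members are uncertain.

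Genes of the killing machinery went both ways. Of 12 granule and death ligand genes past the minimum, 2 were higher in both libraries, Gzmc and Tnfsf10, and 3 lower, Gzma, Prf1 and Serpinb9. Over all genes 2.18% were higher and 1.97% lower. Gzma was at 3374 and 3401 CPM against 7093 and 6090 CPM, ratios of 0.476 (0.456 to 0.495) and 0.559 (0.535 to 0.582). Prf1, the pore-forming perforin, had ratios of 0.518 and 0.468. Gzmb, which encodes granzyme B, had ratios of 0.889 (0.824 to 0.959) and 0.706 (0.647 to 0.769) and did not reach the 1.5-fold minimum. Among chemokines, Ccl5 was at 4374 and 4754 CPM against 11983 and 9872 CPM, ratios of 0.365 and 0.482, and Ccl4 had ratios of 0.511 and 0.386. Nr4a2, an early gene of antigen and cytokine signals, had ratios of 0.339 and 0.445, and Crem, a cAMP-responsive repressor, 0.536 and 0.338. Of the other lowest genes named by rank, Borcs7 had ratios of 0.332 and 0.215, Tgif1, a TGF-β pathway repressor, 0.404 and 0.348, and Myb 0.437 and 0.338.

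Energy genes, which bear on the metformin and hypoxia questions of the study, seldom met the rule. None of the 36 complex I subunits past the minimum differed by the rule in both libraries, with median log2 ratios of 0.01 and 0.03. Of 15 hypoxia and glycolysis genes, 0 were higher and 1 lower in both libraries, with median log2 ratios of 0.22 and -0.03.

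The cells with UMIs of both Cxcr6 and Itga1, 17 control and 15 metformin, stood farthest from other NK cells. Against other NK cells, 67 of 2545 genes were higher in both libraries (2.63%) and 101 lower (3.97%). Gzmc was at 7811 and 6036 CPM, S100a4 at 1170 and 1472 CPM, Tmem176b at 402 and 394 CPM and Il7r at 324 and 174 CPM. Eomes was at 15.7 and 38.7 CPM, ratios of 0.0490 (0.0101 to 0.144) and 0.141 (0.0516 to 0.309) against other NK cells. Klra4, Klra8 and Zeb2 each had 0 UMIs in the control cells of this kind, which allows up to 15.7 CPM, and Klra8 and Zeb2 had 12.9 CPM each in the metformin cells. All 6 Ly49 genes past the minimum were lower in both libraries, and so were 13 of 16 circulating NK genes. Gzma was at 52.2 and 600 CPM and Ccl5 at 433 and 1530 CPM, but in the metformin cells of this kind 1 cell held 77.4% of the Gzma UMIs and 1 cell 52.7% of the Ccl5 UMIs. Gzma was found in 5 of 17 and 3 of 15 cells.

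Receptor genes of the same small set went both ways. Ldha, lactate dehydrogenase A of glycolysis and a HIF target, was at 428 and 452 CPM against 281 and 280 CPM in other NK cells, ratios of 1.52 (1.19 to 1.93) and 1.61 (1.24 to 2.06). It was 1 of 15 genes on the hypoxia and glycolysis list, of which 1 was higher and 1, Pfkp, lower in both libraries. That list's median log2 ratios were 0.40 in control and 0.31 in metformin, where all genes had -0.02 and -0.04. Gapdh was higher in control only and Pgk1 in metformin only. None of the 36 complex I genes met the rule in both libraries, with medians of 0.09 and 0.31. Klrc1, which encodes the inhibitory receptor NKG2A, had ratios of 2.86 (2.29 to 3.56) and 2.77 (2.16 to 3.52), and Ikzf2, encoding Helios, 2.84 and 2.83. Cxcr3, the receptor for CXCL9 and CXCL10, had ratios of 2.71 and 2.15. Of 4 genes past the minimum on the inhibitory receptor list, 1 was higher, Klrc1, and 2 lower, Klre1 and Klri2. Klri2 stood on this list, but its product pairs with that of Klre1 as an activating receptor. The counts of these lists are thus not read as a balance of inhibition and activation. Of 18 genes on the activating receptor and adaptor list 3 were higher, the inhibitory Klrb1b among them, and 2 lower, Cd247 and Cd2. Of 13 chemokine receptor and adhesion genes 1 was higher and 5 lower. Over all genes 2.63% were higher and 3.97% lower. Of 21 interferon response genes past the minimum in the metformin library, 11 were lower and 0 higher, where 9.35% of all 2664 genes were lower and 5.44% higher. In the control library 3 of 21 were lower and 2 higher, where 8.63% of all 2759 genes were lower and 7.83% higher. The difference between the libraries was not tested.

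Cells with Cxcr6 alone, 21 and 18, shared the Tmem176 and IL-7 receptor transcripts but little of the granzyme C. Against other NK cells, 51 of 2535 genes were higher in both libraries (2.01%) and 19 lower (0.750%). Tmem176b was at 354 and 497 CPM and Il7r at 223 and 434 CPM, while Gzmc was at 315 and 39.5 CPM, with 79.2% of the control UMIs in 1 cell. Rora was at 223 and 276 CPM, ratios of 7.59 (4.74 to 12) and 13.2 (8.35 to 20.7). The interferon-induced Ifit3 was at 236 and 197 CPM against 47.7 and 49.9 CPM in other NK cells, ratios of 4.95 (3.24 to 7.43) and 3.95 (2.46 to 6.11), and Ifit1 had ratios of 4.78 and 3.51. In cells with both genes Ifit3 was lower, at 41.8 and 19.4 CPM. Krt83, a hair keratin gene singled out after its values were seen, was at 151 and 182 CPM against 4.90 and 1.64 CPM. Spp1 had 0 UMIs in the Cxcr6-only cells of both libraries, which allows up to 19.7 and 23.7 CPM.

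Cells with Itga1 alone were the larger share. Against other NK cells, 30 of 2718 genes were higher in both libraries (1.10%) and 54 lower (1.99%). These counts rest on more cells than those of the other kinds, so they do not rank the kinds. Eomes was at 215 and 227 CPM, Klra8 at 574 and 459 CPM and Zeb2 at 143 and 92.7 CPM, levels between those of the cells with both genes and other NK cells. Tmem176b was at 13.7 and 42.1 CPM and Il7r at 25.5 and 27.4 CPM, where other NK cells had 15.3 and 15.1 CPM and 23.9 and 12.7 CPM. Gzmc was still higher, at 1418 and 472 CPM, but 1 cell held 59.7% of the control and 1 cell 62.5% of the metformin UMIs. Ccl5 was at 4861 and 5166 CPM, lower than the 7693 and 7150 CPM of cells with Cxcr6 alone.

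**Figure D3:**
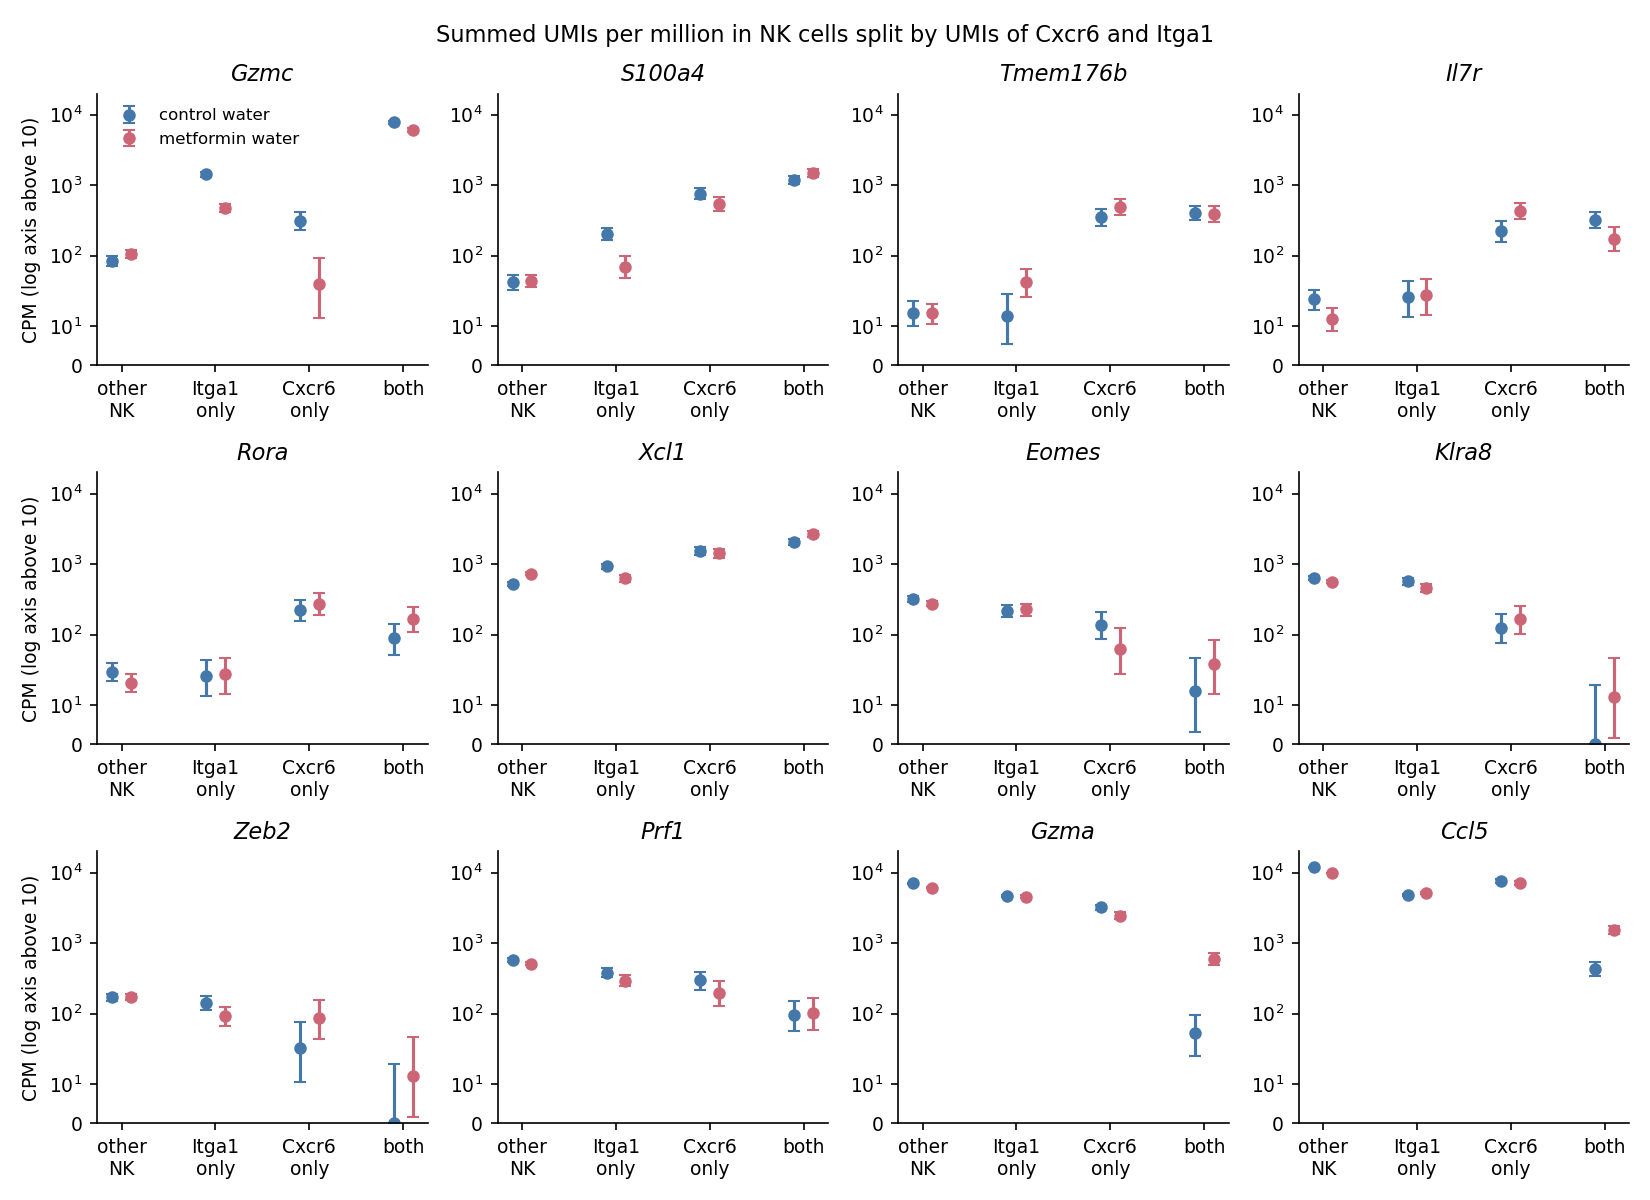
Summed UMIs as CPM ( y axis linear up to 10 and logarithmic above, with exact 95% Poisson intervals) of 12 genes in other NK cells and in tissue-type cells with Itga1 only, Cxcr6 only or both genes, in control and metformin libraries. Tmem176b, Il7r and Rora are higher in the Cxcr6-only and both-gene cells than in the Itga1-only cells, and Eomes, Klra8, Zeb2 and Gzma are lowest in the both-gene cells.

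Cell by cell, the Tmem176 and Eomes transcripts seldom met in tissue-type cells, of which 50% in control and 52.7% in metformin had an Eomes UMI. Of the tissue-type cells with a UMI of Tmem176a or Tmem176b, 4 of 31 in control and 1 of 25 in metformin had a UMI of Eomes, and 2 of 31 and 3 of 25 had one of Klra4 or Klra8. Il7r was found in 23 of the 31 and 16 of the 25. Of the tissue-type cells with an Eomes UMI, 37 of 48 and 35 of 49 also had one of Klra4 or Klra8, and 5 of 48 and 3 of 49 had Il7r. The gate thus joined cells with one set of transcripts to cells with the other. Gzmc fell on both sides: 14 of 24 and 10 of 19 Gzmc cells had a Tmem176 UMI, and 10 of 24 and 8 of 19 had Eomes. In other NK cells 11 of 16 and 16 of 23 cells with a Tmem176 UMI had Eomes, where 79.1% and 74.7% of all these cells had it. Their Tmem176 UMIs were at or near the background of free RNA, as given below. The overlap in other NK cells therefore cannot show whether the split is present there.

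By kind of cell, a Tmem176 UMI was found in 88.2% of control and 73.3% of metformin cells with both gate genes, in 57.1% and 61.1% of those with Cxcr6 alone, in 6.90% and 5.0% of those with Itga1 alone and in 6.43% and 6.41% of other NK cells. In B cells, Tmem176b had a UMI in 8.11% and 4.81%, so the last 2 shares were at or near the background of free RNA and are not read as expression. Eomes had a UMI in 11.8% and 13.3% of cells with both genes, 70.7% and 70.0% of those with Itga1 alone and 79.1% and 74.7% of other NK cells, and in no B cell. With all cells thinned to 3943 UMIs, Eomes was found in 0 of 17 and 2 of 15 cells with both genes, in 57.1% of Itga1-only cells of either library and in 67.6% and 60.1% of other NK cells. The order was the same thinned and unthinned.

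**Figure D4:**
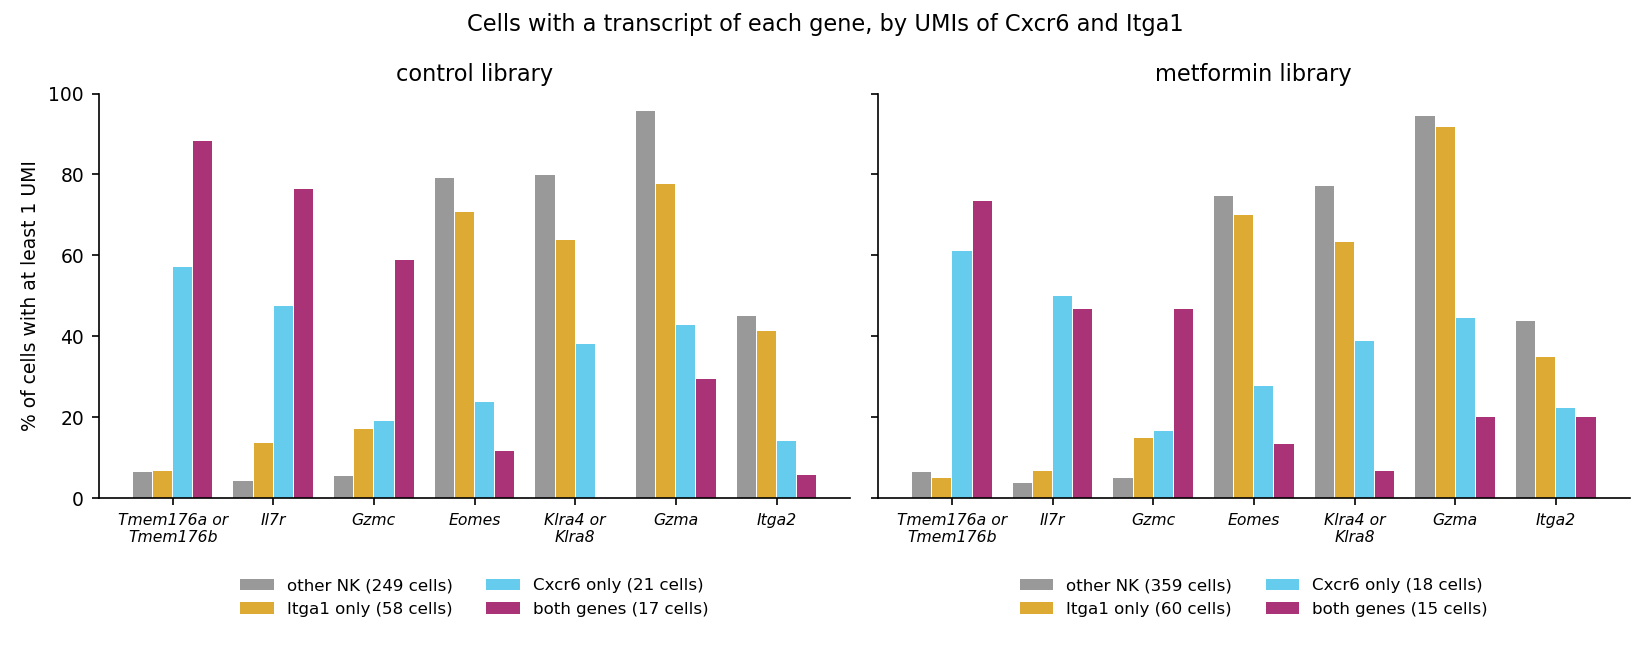
Percent of cells with at least 1 UMI of each gene or pair (bars, unthinned) in other NK cells and the 3 kinds of tissue-type cell, for the control (left) and metformin (right) library; the legend gives the number of cells. Tmem176 and Il7r bars are tall for cells with Cxcr6 or both genes and short for Itga1-only and other NK cells, and the Eomes, Klra4 or Klra8 and Gzma bars run the other way.

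The values on either side of the gate did not follow one order. Gzmc was at 84.5 and 106 CPM with 0 UMIs of Cxcr6 and Itga1, 25.4 and 16.5 CPM with 1, 1785 and 546 CPM with 2 and 4613 and 3061 CPM with 3 or more, in control and metformin. Tmem176b was at 15.3 and 15.1 CPM with 0, 29.0 and 89.2 CPM with 1, 104 and 339 CPM with 2 and 265 and 237 CPM with 3 or more. Eomes was at 320 and 275 CPM with 0, 232 and 215 CPM with 1, 256 and 164 CPM with 2 and 76.0 and 116 CPM with 3 or more. Gzmc was thus lower with 1 UMI than with 0 and highest with 3 or more in both libraries, and Eomes was lowest with 3 or more.

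Metformin is a biguanide diabetes drug that acts on mitochondrial complex I and lowers oxygen use, and the study's title puts γδ T cells and the hypoxia of the tumour side by side. The metformin tissue-type cells had more transcripts of 6 of 19 immediate early genes, Klf2, Cxcl10 and Ifng, and fewer of Ifitm genes, Gzmc, Ccl4, Rgs1 and Lgals3, than the control ones. By the same rule of size, 80 of 2989 genes were higher in metformin (2.68%) and 101 lower (3.38%). Without the cell richest in each gene 45 of those (1.51%) and 90 (3.01%) still met the rule. In other NK cells, with more cells, 20 of 2839 genes were higher (0.704%) and 18 lower (0.634%). All of this compares 1 library with 1 library, so the drug and any other difference between the libraries cannot be told apart.

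One such difference was found in each cell group examined. Gh, growth hormone, had 65 UMIs (76.1 CPM) in control and 1 UMI (1.32 CPM) in metformin tissue-type cells, a ratio of 0.0174 (4.33e-04 to 0.10), and was at 81.7 and 1.01 CPM in T cells and 87.2 and 0.728 CPM in B cells. The level was alike across cell types within a library. Markers of phagocytes and antigen-presenting cells also moved. Apoe, the lipid carrier of microglia and macrophages, was at 56.2 and 157 CPM in control and metformin tissue-type cells, 53.3 and 115 CPM in other NK cells and 62.3 and 137 CPM in T cells. Summed over 13 microglia and macrophage genes, tissue-type cells held 455 and 677 CPM, with Ms4a7 at 0 UMIs in both, and other NK cells 469 and 886 CPM. Summed over 11 dendritic cell genes, tissue-type cells held 216 and 293 CPM and other NK cells 181 and 553 CPM. The class II genes H2-Aa and H2-Ab1 were higher in metformin by the rule in both groups, and H2-Eb1 in other NK cells. The part of free RNA from those cells in the results above and below was not tested.

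Single cells weighed on some ratios. One metformin tissue-type cell held 146 UMIs of Mgp and most of the Ptgds, Dcn and Col1a2 UMIs, genes of stromal and meningeal cells. The metformin cell richest in Fos had 151 of its 364 UMIs. Without the stromal cell, an alternative chosen after seeing the data, 60 genes were higher and 111 lower. The metformin and control libraries shared 9 cell barcodes, of which 1 was a gated control NK cell and 0 were tissue-type cells.

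Immediate early genes, which turn on within minutes of a signal or of cell handling, were higher in metformin for 6 of 19 listed genes past the minimum and lower for 1, Rgs1. Over all genes 2.68% were higher and 3.38% lower. The list's median log2 ratio was 0.41, where all genes had -0.03. In other NK cells 3 of 20 were higher and 0 lower, where 0.704% and 0.634% of all genes were, and the median was 0.21. Fosb was at 105 CPM in control and 235 CPM in metformin, a ratio of 2.23 (1.72 to 2.91), and Nr4a1 at 39.8 and 88.6 CPM, also 2.23 (1.45 to 3.47). Fos was at 209 and 481 CPM, a ratio of 2.30 (1.92 to 2.76), but 1.52 without its richest cell, 1.39 without the stromal cell and 1.01 with only cells of at least 2 UMIs of Cxcr6 and Itga1. Dusp1, a MAP kinase phosphatase, had a ratio of 1.84 (1.32 to 2.59), Egr1 1.54 and Nr4a2 1.55. Where a Cxcr6 UMI was required, in 38 control and 33 metformin cells, Dusp1 was at 0.985 and Egr1 at 0.906, and with at least 2 UMIs of Cxcr6 and Itga1 Nr4a2 was at 0.802.

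The early genes were not higher in every kind of tissue-type cell. Fos was at 174 and 630 CPM in Itga1-only cells, 216 and 308 CPM in Cxcr6-only cells and 298 and 168 CPM in cells with both genes, ratios of 3.61 (2.84 to 4.63), 1.42 (0.872 to 2.33) and 0.564 (0.340 to 0.912). Klf2, the factor that keeps the exit receptor S1PR1 on, went the same way: the ratio was 1.99 (1.63 to 2.44) in Itga1-only cells, 1.77 (1.14 to 2.79) in Cxcr6-only cells and 0.530 (0.269 to 0.996) in cells with both genes, and 1.77 (1.49 to 2.10) over all 189 cells. With at least 2 UMIs of Cxcr6 and Itga1 it was 1.14 (0.875 to 1.47). The metformin cell richest in Fos was an Itga1-only cell and is kept in the Fos ratio of 3.61, which was not computed without it. Over all tissue-type cells the Fos ratio was 2.30, and 1.52 without the richest cell of each library. The differences between the kinds were not tested. In other NK cells Fos had a ratio of 1.70 (1.48 to 1.96) and Klf2 1.18 (1.09 to 1.29), so the first of them met the rule there too.

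Cytokine transcripts were divided. Ifng, interferon-γ, was at 78.4 CPM in control and 131 CPM in metformin tissue-type cells, a ratio of 1.67 (1.21 to 2.31), and in other NK cells it had a ratio of 0.883 (0.726 to 1.08). Within the kinds, the Ifng ratio in metformin over control was 3.36 (1.88 to 6.32) in Itga1-only and 1.03 (0.540 to 1.95) in both-gene cells. It was 1.17 (0.776 to 1.77) where a Cxcr6 UMI was required and 1.16 (0.795 to 1.70) with no Cd3 UMI allowed. With at least 2 UMIs of Cxcr6 and Itga1 it was 1.34 (0.914 to 1.98). These 3 intervals include 1. Cxcl10, the interferon-induced ligand of CXCR3, was at 23.4 and 88.6 CPM, a ratio of 3.78 (2.27 to 6.59), from 11 and 16 cells with a UMI, and had a ratio of 0.706 (0.559 to 0.892) in other NK cells. Ccl4, a chemokine that draws other leukocytes, was at 227 and 103 CPM, a ratio of 0.454 (0.345 to 0.594), and at 0.601 (0.540 to 0.669) in other NK cells, lower by the rule in both. Xcl1 was at 1292 and 1191 CPM, a ratio of 0.922 (0.843 to 1.01).

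Of 17 residence and ILC1 genes past the minimum, 1 was higher in metformin, Tmem176a, and 2 lower, Gzmc and Rgs1. Over all genes 2.68% were higher and 3.38% lower. Tmem176b had a ratio of 1.18 (0.927 to 1.5), Il7r 0.985 (0.740 to 1.31), Eomes 1.03 (0.798 to 1.32), Gzma 1.01 (0.956 to 1.06), Klra8 0.873 (0.735 to 1.04) and Spp1 1.0 (0.740 to 1.35). Gzmc was at 2654 and 1539 CPM, a ratio of 0.580 (0.540 to 0.623). Without the richest cell of each library it was at 2183 and 782 CPM, 0.358 (0.326 to 0.393), and without dividing cells the ratio was 0.814 (0.751 to 0.883), which no longer met the rule. It was lower in Itga1-only cells at 0.333 (0.285 to 0.387) and within 1.5-fold in cells with both genes at 0.773 (0.711 to 0.839). With most UMIs in a few cells, the share of cells with Gzmc, 24 of 96 and 19 of 93, moved less than the level. Gzmb had a ratio of 0.733 and Prf1 of 0.796, both short of the 1.5-fold minimum. Tmem176a met the rule at 1.53 (1.16 to 2.01), beside its level partner Tmem176b.

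The Ifitm family of membrane proteins, known from antiviral defence, was lower in metformin tissue-type cells. Ifitm1 was at 337 and 34.4 CPM, a ratio of 0.102 (0.0655 to 0.153), with 53.8% of the control UMIs in 1 cell, and 0.0431 without the richest cells. Ifitm2 was at 221 and 50.2 CPM, 0.227 (0.156 to 0.323), and Ifitm3 at 180 and 96.5 CPM, 0.536 (0.400 to 0.712). Cells with a UMI numbered 14 and 4 for Ifitm1, 14 and 9 for Ifitm2 and 25 and 16 for Ifitm3. Cells with both gate genes held most of the control transcripts, with Ifitm1 at 1300 and 25.8 CPM and Ifitm2 at 731 and 136 CPM. Ifitm2 was at 249 and 31.6 CPM in Cxcr6-only cells but at 21.5 and 27.4 CPM in Itga1-only cells, so it was not lower in that larger kind. In other NK cells Ifitm2 had a ratio of 1.04 (0.715 to 1.52) and Ifitm3 one of 5.50 (3.78 to 8.27). Of 25 genes on the wider interferon list, 2 were higher, Ifit2 and Cxcl10, and 2 lower, Ifi27l2a and Ifi35. Over all genes 2.68% were higher and 3.38% lower. The list had a median log2 ratio of 0.06, where all genes had -0.03. Ifi27l2a had a ratio of 0.545, and 1.05 without dividing cells.

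Of the other genes lower in metformin, Lgals3, galectin 3, was at 250 and 112 CPM, a ratio of 0.449 (0.345 to 0.580), and lower in Itga1-only cells at 0.430 and in cells with both genes at 0.525, with a ratio of 1.01 (0.801 to 1.27) in other NK cells. Rgs1, which damps chemokine receptor signals and is typical of resident lymphocytes, was at 509 and 300.1 CPM, 0.590 (0.50 to 0.694). AA467197 had a ratio of 0.309 (0.198 to 0.470) and Mrpl13, a mitochondrial ribosomal protein gene, 0.364 (0.205 to 0.619). Ide, insulin-degrading enzyme, had 0.449 (0.281 to 0.699) and, in other NK cells, 0.415 (0.310 to 0.552), so it was lower by the rule in both. Of 8 inhibitory receptor and checkpoint genes past the minimum, 2 were lower and 0 higher, where 3.38% of all genes were lower and 2.68% higher: Lag3 at 0.613 (0.386 to 0.958) and Nt5e, which encodes the adenosine-forming enzyme CD73, at 0.653 (0.424 to 0.994).

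Of the other genes higher in metformin, Lmo4 had a ratio of 1.88 (1.33 to 2.69), Phf11b 1.81 (1.33 to 2.49), Bcap29 2.21 (1.31 to 3.83), Tia1, an RNA-binding protein of stress granules, 1.97 (1.28 to 3.07) and Sat1, the enzyme that breaks down polyamines, 1.65 (1.27 to 2.16). None of the 5 met the rule in other NK cells, where the ratios ran from 0.772 for Tia1 to 1.10 for Bcap29. None of the 36 complex I subunits and none of the 15 hypoxia and glycolysis genes past the minimum met the rule, with median log2 ratios of -0.01 and -0.16. Ldha was at 352 and 308 CPM, a ratio of 0.874 (0.734 to 1.04). None of the 8 integrated stress response genes did either, with a median of 0.09.

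**Figure D5:**
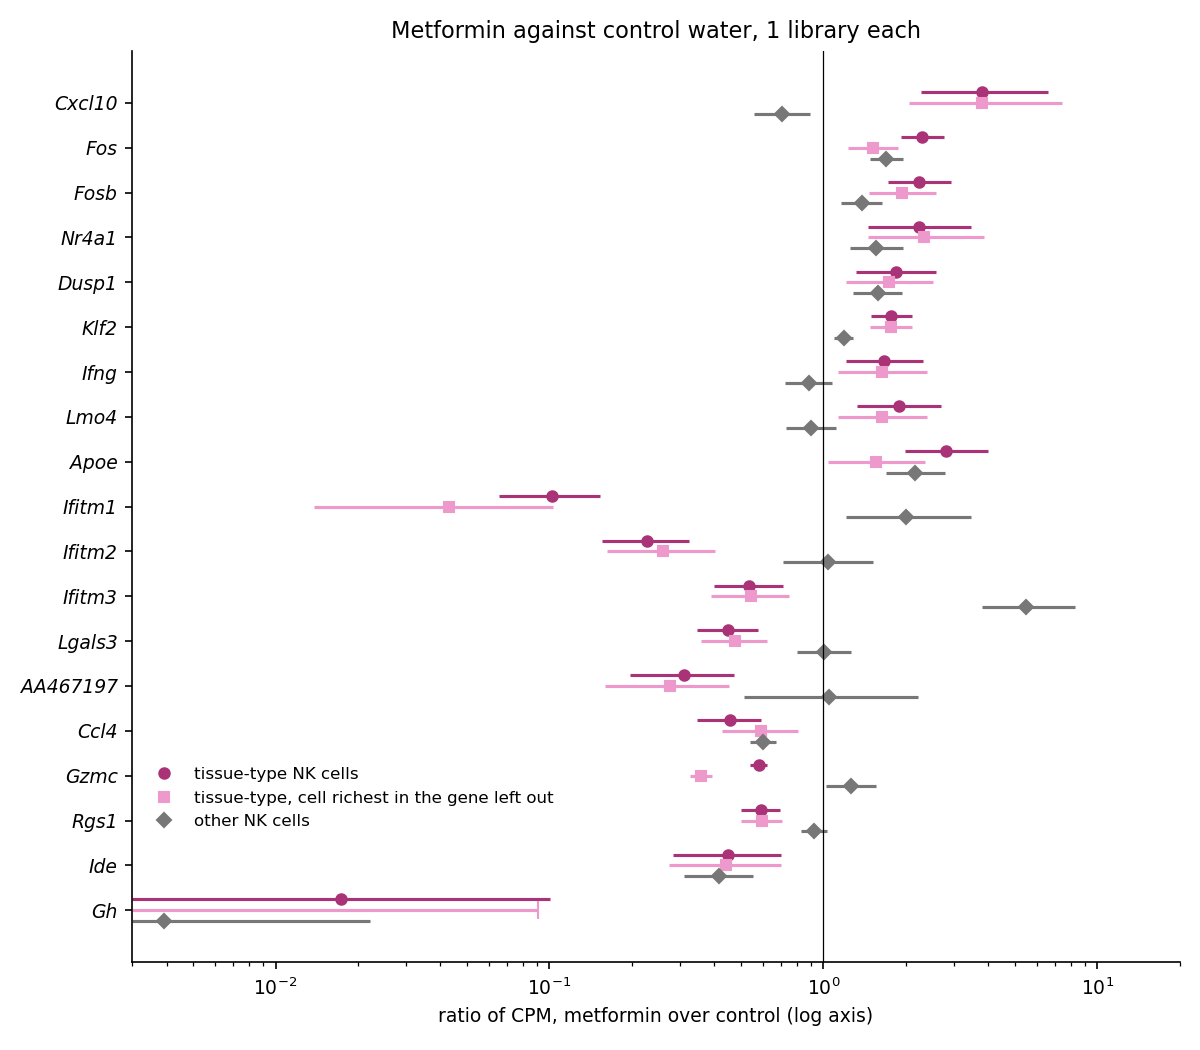
Ratio of CPM from summed UMIs, metformin over control (logarithmic axis, 95% exact conditional intervals that cover counting error only), for 19 genes in tissue-type NK cells, in tissue-type cells without the cell richest in each gene, and in other NK cells. A bar without a point marks a ratio of 0 with its upper bound, and intervals that reach the left edge go on beyond it. Ifng, Cxcl10 and Lmo4 are above 1 in tissue-type cells only, the Ifitm genes and Lgals3 are below 1 in tissue-type cells and at or above 1 in other NK cells, and Ccl4, Ide and Gh are below 1 in both.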

How the data were processed

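Cells sorted for CD45 were made into 2 droplet libraries with the 10x Genomics 3' kit, per the labels' protocols. The deposited values are UMI counts, whole numbers per gene and barcode for 31053 genes. Cell Ranger, Seurat and build mm10 are named per the submitters' processing notes. The matrix software was version 3.0.0, per the file headers. Aligner settings and the annotation are not given in the sources used here.

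Control and metformin held 6174 and 5473 barcodes and 49651404 and 47142356 UMIs. Cells with under 300 genes or over 10% mitochondrial UMIs were left out, leaving 5435 and 4606.

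Scrublet, as built into scanpy 1.11.5, with an expected rate of 5%, marked 62 and 37 cells and 0 gated NK cells. It marked few, so doublets may remain, and they were kept. UMIs were summed per library and kind of cell. T cells for background levels had at least 3 UMIs of the Cd3 genes and B cells at least 2 of Cd79a, with none of the other genes of the NK gate except up to 3 of the C1q genes. Ratios of CPM have exact conditional intervals, levels exact Poisson and shares Clopper-Pearson intervals, all 95% (scipy 1.17.1). The log2 ratios in medians and plots add 0.5 UMI to each sum. A count of 0 was taken to allow 3 UMIs. The counting of calls was tested on simulated UMI sums with counting error only. These lack the spread between cells, so they do not cover genes with most UMIs in 1 cell.

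The members and the 31 gene lists were chosen with earlier results of these data known. Named genes are list members and the 12 highest and 12 lowest by the bound nearest to 1, in both libraries or, for metformin, also without the richest cell, leaving out predicted, receptor segment, mitochondrial, ribosomal, haemoglobin and sex-linked genes. Genes named within the 3 kinds of tissue-type cell come from these and from the lists unless stated. Alternatives changed the cell filter, the gate, doublets, dividing cells, scaling, the richest cell and the minimum level. A few genes that the rule would name are not reported here.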

Additional observations from a re-analysis of the deposited data

Results flagged for a closer look

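For 2 genes the metformin to control ratio met the rule of size in opposite directions in tissue-type and other NK cells. The difference between the kinds of cell was not tested, since there is 1 library per group. Ifitm3 had a ratio of 0.536 (0.400 to 0.712) in tissue-type cells, from 154 control and 73 metformin UMIs, and 5.50 (3.78 to 8.27) in other NK cells, from 31 and 255 UMIs. Without the richest cells its ratios were 0.543 and 3.57. Sox4, a transcription factor gene, had a ratio of 13.3 (4.85 to 50.7) in tissue-type cells, from 4 and 47 UMIs, and 0.604 (0.436 to 0.836) in other NK cells, from 83 and 75 UMIs. Without the richest cells its ratios were 12.4 and 0.606.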

How the results depend on the processing

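No paired analysis was possible because each group is 1 library. Of 61 values of the shares and counts of genes under the alternatives, 54 stayed near the main value. With no CPM minimum and 5 UMIs, genes higher and lower in tissue-type than in other NK cells numbered 137 and 91, and genes higher and lower in metformin tissue-type cells 315 and 282. With at least 2 UMIs of Cxcr6 and Itga1, 103 genes were lower in tissue-type cells and 163 lower in metformin. Without the richest cell of each gene 50 genes were higher in metformin. Some genes changed side. With no Cd3 UMI allowed, Ly6c2 in tissue-type over other NK cells was at 0.899 in metformin. Where an Itga1 UMI was required, Ifit3 was at 0.805 in control. Where a Cxcr6 UMI was required, in 38 and 33 cells that include those with both genes, Ccl3 was at 1.26 in control, and in metformin over control Fos was at 0.882, Dusp1 at 0.985 and Egr1 at 0.906. Nr4a2 was at 0.802 with at least 2 UMIs and Ifi27l2a at 1.05 without dividing cells. The cause was not tested. Scaling to the median ratio moved the share of higher calls in metformin from 44.2% to 50.3%. Genes under 50 CPM or 20 UMIs in both groups were not compared.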

Other observations

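A long noncoding RNA gene listed as AC163354.1, singled out after its values were seen, was higher in tissue-type than in other NK cells in both libraries. It was at 195 CPM against 36.1 CPM in control and at 184 CPM against 28.7 CPM in metformin, ratios of 5.41 (4.0 to 7.41) and 6.41 (4.78 to 8.67).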
